A study of Populus tremula x Populus alba with 24 samples.

Results

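The step from 8 h to 24 h after a lipochitooligosaccharide (LCO) treatment was followed in poplar roots by RNA sequencing. It compares the 3 libraries of roots taken at 24 h with the 3 taken at 8 h, 6 of the 24 samples that the labels describe, and control libraries do not enter the difference. The plants were Populus tremula x alba of a single INRA hybrid clone, grown in vitro, so each group is 1 genotype. They had stood for 10 days on vertical plates of Woody Plant Medium with little nitrogen, at 0.5 mM, and little phosphate, at 7 μM. Roots at both times had been flooded for 1 h, starting 3 h after dawn, with a 10 nM solution of LCO purified from the bacterium Rhizobium sp. IRBG74. The control roots, taken at time 0, belong to a solution of 0.005% ethanol, and the labels leave unclear whether they were immersed. Roots of 4 plants were combined for each library, and the 3 combined samples of a time are biological replicates according to the labels. Among the 24 samples, the labels describe no untreated or ethanol-treated roots at 8 h or 24 h.

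LCOs are short chains of chitin sugars that carry a fatty acid. Rhizobia and mycorrhizal fungi release them, and in legumes LysM receptor kinases at the root surface perceive them and set off calcium oscillations in the nucleus. Roots also keep a daily rhythm, in which clock transcription factors turn each other and many other genes up and down between dawn and dusk. The 8 h roots were taken 11 h or 12 h after dawn, and the 24 h roots 3 h or 4 h after the next dawn, the labels leaving open if time is counted from the beginning or the end of the flooding. With 16 h of light and 8 h of darkness a day, both times lay in the light, and the 24 h roots shared the time of day of the control. The time since LCO, the time of day and the night between them therefore cannot be told apart in this step. The tables give Potri identifiers and pair none of them with a gene name or function, so genes go by identifier, root markers were not looked up, and no gene is assigned to a pathway.

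Levels are in TPM, a relative abundance that corrects for transcript length and library total. The deposited values were quantile-normalized, so that each library holds nearly the same set of values, and the read depth behind them is unknown. Genes listed at 0 numbered 9165 to 10070 in the 8 h libraries and 9029 to 9494 in the 24 h libraries, of 42950 in the table. Correlations across genes on the log2(TPM + 1) scale were 0.972 to 0.979 between libraries of 8 h, 0.970 to 0.978 between those of 24 h and 0.948 to 0.974 between the times. The median SD of a gene among replicates was 0.173 at 8 h and 0.196 at 24 h on that scale.

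Between 8 h and 24 h, a small share of the measured root genes was called different, and a gene without a call is not shown to be unchanged. The test covered 25636 genes whose mean over 22 libraries reached 1 TPM, and 679 (2.65%) were called at an adjusted p under 0.05 in limma, a linear model that shares information on the spread across genes. The genes called higher at 24 h numbered 315 (1.23%), and those called lower 364 (1.42%). The difference was at least 2-fold on the log2(TPM + 1) scale for 149 of the higher genes (0.581% of genes tested) and 222 of the lower genes (0.866%). It was at least 4-fold for 16 higher and 36 lower genes. The median log2 difference, 24 h minus 8 h, was 0.98 over the higher genes and -1.11 over the lower genes, beside -0.01 over all genes tested. All 3 libraries of 24 h lay above all 3 of 8 h in 312 of the 315 higher genes, and below them in 363 of the 364 lower genes. Over all genes tested the same held for 3240 (12.6%) upwards and 3629 (14.2%) downwards, and the unadjusted p was under 0.05 for 3549 (13.8%). The call rests on the difference between these same libraries, so their separation in the called genes was largely set by the call.

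The size of this count rested on single libraries. It was 371, 377 and 245 without 8 h replicates 1, 2 and 3, and 219 and 350 without 24 h replicates 1 and 2, but 725 without 24 h replicate 3. Of the 679 genes, between 217 and 518 were called in each of these fits. None of the 679 changed direction in any alternative that tested it, but this was largely set by the choice of genes. A change of filter, trend or block leaves the difference itself as it was. Leaving out 1 library cannot reverse a gene whose libraries do not overlap between the times, which holds for nearly all of the 679. The spread used in the test is shared by all 22 libraries. Without the 15 min and 30 min libraries, whose median SD was 0.319 and 0.303, 1117 genes were called. With only the libraries of 8 h and 24 h in the fit, 552 were called, on 4 residual degrees of freedom. Weighting the libraries by their own spread gave 2725. The cause of these differences in count was not tested.

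**Figure D1:**
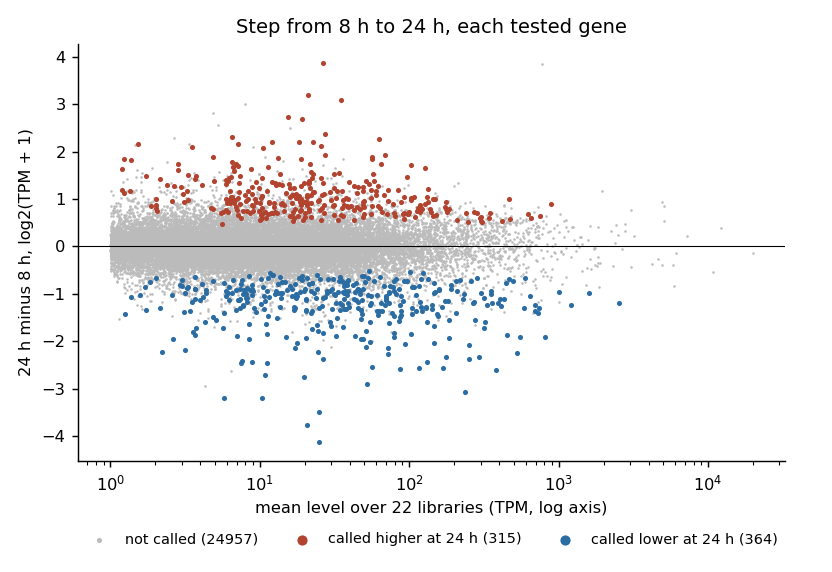
Each point is 1 of 25636 tested genes, with the mean level over 22 libraries in TPM on a log axis across and the log2(TPM + 1) difference, 24 h minus 8 h, upwards. Red points are the 315 genes called higher at 24 h, blue points the 364 called lower, grey points the genes not called; called genes lie over most of the range of levels, and the grey point near the top is a gene that 2 of the 3 libraries of 24 h raise.

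The 2 genes with the largest rise under the naming rule were both near 3 TPM at 8 h. Potri.014G106800 stood at 3.86, 3.36 and 2.71 TPM in the 8 h libraries and at 51.6, 63.9 and 71.7 TPM in those of 24 h. The means were 3.31 ± 0.578 and 62.4 ± 10.1 TPM (SD, n = 3 each), a log2 difference of 3.88 (SE 0.19, limma adjusted p = 3.50e-09). Every 24 h library was far above every 8 h library, and this was the largest positive difference of any gene tested. Before that, the gene had been at 23.1, 25.1 and 30.4 TPM in the control and at 40.2, 31.0 and 43.9 TPM at 15 min. At 4 h it was at 9.06, 9.63 and 9.72 TPM. From 30 min to 8 h its mean was lower at each time than at the time before, and it was the highest of all groups at 24 h. Against the control the log2 difference was -2.66 at 8 h (adjusted p = 4.40e-08) and 1.22 at 24 h (adjusted p = 0.000153), 2 comparisons that share the control libraries.

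Potri.001G031800 was also low at 8 h and high at 24 h. Its levels were 2.96, 2.56 and 2.95 TPM at 8 h and 28.6, 33.2 and 41.8 TPM at 24 h. The means of 2.83 ± 0.228 and 34.5 ± 6.71 TPM (SD, n = 3 each) differed by 3.20 on the log2 scale (SE 0.18, limma adjusted p = 1.27e-08). The control libraries held 26.9, 28.7 and 36.3 TPM and overlapped with those of 24 h. The log2 difference from control was -3.04 at 8 h (adjusted p = 3.77e-09) and 0.16 at 24 h (adjusted p = 0.505). At 4 h the gene was at 8.46, 6.87 and 7.56 TPM, below the control and above 8 h in every library.

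The gene with the largest fall went the opposite way through the day. Potri.009G041100 was at 88.8, 74.2 and 90.3 TPM at 8 h and at 2.05, 2.17 and 10.9 TPM at 24 h. The means were 84.4 ± 8.90 and 5.04 ± 5.07 TPM (SD, n = 3 each), a log2 difference of -4.13 (SE 0.48, limma adjusted p = 0.000100). No 24 h library came near the 8 h libraries, though replicate 3 stood above the other two of its group. In the control the gene was at 21.3, 14.01 and 8.28 TPM, and at 4 h at 45.2, 30.7 and 58.7 TPM. It was called higher than control at 8 h (2.55, adjusted p = 0.000710) and lower than control at 24 h (-1.58, adjusted p = 0.0167).

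Potri.017G011900 fell from 16.8, 26.4 and 41.1 TPM at 8 h to 1.39, 2.41 and 0 TPM at 24 h. The means were 28.1 ± 12.2 and 1.27 ± 1.21 TPM (SD, n = 3 each), a log2 difference of -3.76 (SE 0.60, limma adjusted p = 0.00206). The libraries of the 2 times did not overlap, but those of 8 h ranged widely, and 1 of 24 h is listed at 0. Here the 8 h level was not called different from the control (28.9, 71.6 and 29.3 TPM; log2 difference -0.56, adjusted p = 0.487). The 24 h level was called lower than the control (-4.33, adjusted p = 3.91e-05), and was the lowest of the 8 groups.

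A large difference between means was not always a call. Potri.013G139200, named after its values were seen as the largest difference that missed the threshold, was at 157, 92.7 and 30.3 TPM at 8 h. At 24 h it was at 3119 and 5007 TPM in replicates 1 and 3 and at 88.7 TPM in replicate 2. The log2 difference was 3.85 (SE 1.72, limma adjusted p = 0.316), and the libraries of both times overlapped.

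**Figure D2:**
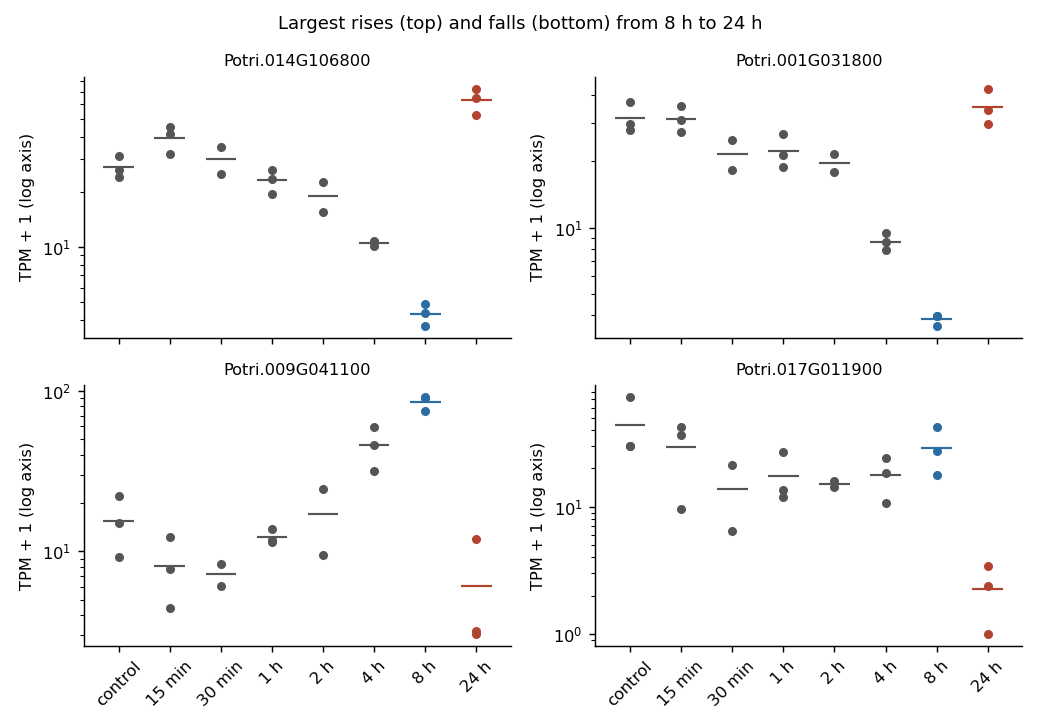
TPM + 1 on a log axis for the 2 named genes that rose (top) and the 2 that fell (bottom), with 1 point per library, a line at the mean of each group, 8 h in blue and 24 h in red. Both rising genes are lower at 4 h and 8 h than in the control and are high again at 24 h, Potri.009G041100 goes up to 8 h and is low at 24 h, and Potri.017G011900 is lowest at 24 h.

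The genes called higher and the genes called lower at 24 h had different courses before the step. These medians describe genes chosen by the difference between the 8 h and 24 h values. The other times also enter the choice, through the filter on mean level and the spread of each gene over all libraries. Their medians are therefore not fully independent of the choice. Over the 315 higher genes, the median level was 19.1 TPM in the control, 19.99 TPM at 1 h, 15.7 TPM at 4 h, 12.1 TPM at 8 h and 28.8 TPM at 24 h. Over the 364 lower genes it was 33.1 TPM in the control, 41.4 TPM at 1 h, 30.8 TPM at 4 h, 29.9 TPM at 8 h and 13.6 TPM at 24 h. The median of all genes tested lay between 8.36 and 8.55 TPM in every group.

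Each library was then placed on a scale on which a gene's mean at 8 h is 0 and its mean at 24 h is 1, and the median was taken over the genes. For the higher genes the control libraries lay at 0.618, 0.652 and 0.517, and the 4 h libraries at 0.580, 0.377 and 0.336. These medians lie on both sides of the midpoint. For the lower genes the control libraries lay at 0.346, 0.172 and 0.141, the 1 h libraries between -0.101 and 0.037 and the 2 h libraries at -0.171 and -0.107. In this set the medians of the earlier libraries stayed nearer the 8 h end of the scale, and none came close to the 24 h end. Single genes lay on both sides of these medians. Over the lower genes the log2 difference of 8 h from control had an interquartile range of -0.65 to 0.91. Within the 24 h group, replicate 1 lay farthest along the step in both sets (1.12 and 1.17) and replicate 3 least far (0.881 and 0.886).

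**Figure D3:**
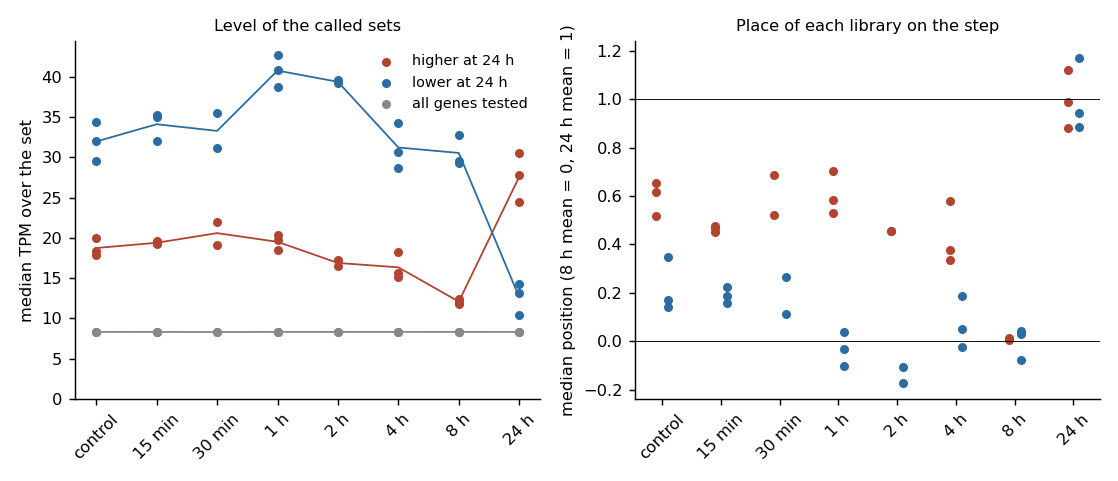
Left, the median TPM over the 315 genes called higher at 24 h (red), the 364 called lower (blue) and all genes tested (grey), with 1 point per library and lines through the group means. Right, the median position of each library between the 8 h mean (0) and the 24 h mean (1): control libraries lie at 0.517 to 0.652 for the higher genes and at 0.141 to 0.346 for the lower genes.

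The comparisons with the control, given side by side, share the control libraries, and each shares the libraries of 1 time with the step. The median log2 difference from control over the higher genes was -0.54 at 8 h and 0.39 at 24 h. Over the lower genes it was 0.24 at 8 h and -0.88 at 24 h, with an interquartile range of -1.95 to -0.18 at 24 h. All genes tested had medians of 0.04 and 0.05. The 24 h group had the highest mean of the 8 groups for 188 of the 315 higher genes (59.7%), where it had for 19.9% of all genes tested. It had the lowest mean for 268 of the 364 lower genes (73.6%), against 17.9% of all genes tested. The 8 h group was the lowest for 196 of the higher genes (62.2%), against 15.5% of all genes tested. It was the highest for 126 of the lower genes (34.6%), against 18.2% of all genes tested. Another 70 of the lower genes (19.2%) had their highest mean at 2 h, 55 (15.1%) at 15 min and 51 (14.01%) at 1 h. Of all genes tested, 10.7% had their highest mean at 2 h, 11.7% at 15 min and 7.79% at 1 h. The choice of genes by the step favours 8 h and 24 h as extremes.

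The difference between the control and 4 h, earlier on the treatment day, uses no library of the step. Its calls do share with those of the step the spread of each gene over all 22 libraries. A gene of small spread is thus called more readily in both, and the shares below are not independent of the choice of genes. Of all genes tested, 1182 (4.61%) were called higher and 1270 (4.95%) lower at 4 h than in the control. Among the 315 genes higher at 24 h than at 8 h, 44 (13.97%) were called lower at 4 h than in the control and 13 (4.13%) higher. Both named genes that rose were among the 44, with log2 differences of -1.37 (Potri.014G106800, limma adjusted p = 0.000155) and -1.87 (Potri.001G031800, adjusted p = 2.90e-06). Among the 364 genes lower at 24 h, 80 (21.98%) were called higher at 4 h and 59 (16.2%) lower. Of the named genes that fell, Potri.009G041100 was called higher at 4 h (1.61, adjusted p = 0.0428), and Potri.017G011900 was not called (-1.26, adjusted p = 0.222). Across all 25636 genes, which are not independent replicates, the log2 difference of the step and that of 4 h against control had r = -0.050. Over the 679 called genes r was -0.200.

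Calls were more frequent among abundant genes. Of genes with a mean from 1 to 5 TPM, 0.790% were called, and the share was 2.29% from 5 to 20 TPM, 4.49% from 20 to 100 TPM and 8.33% above 100 TPM. The median standard error of the log2 difference was 0.25 in the lowest of these classes and 0.22 in each of the others. The log2(TPM + 1) scale shrinks differences at low levels, and its part in these shares was not tested. At 100 TPM and above, 45 genes were called higher and 86 lower at 24 h, whereas from 5 to 20 TPM 123 were higher and 95 lower. The 16 genes at least 4-fold higher ranged from 0.466 to 16.4 TPM at 8 h and from 6.45 to 84.2 TPM at 24 h. The 36 genes at least 4-fold lower ranged from 5.60 to 622 TPM at 8 h and from 0.418 to 142 TPM at 24 h.

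Identifiers of the called genes were also read in order. Of the 364 lower genes, 27 (7.42%) had a neighbour in the order of tested identifiers that was also called lower, and 2.75% of all genes tested had such a neighbour. For the higher genes the share was 1.27% (4 genes), beside 2.40% of all genes tested. Reads from near-identical neighbouring copies are divided by an estimate, and its part in these values was not tested.

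The step before, from 4 h to 8 h, covered less time and shares the 8 h libraries. In it 4762 genes (18.6%) were called, 2428 higher (9.47%) and 2334 lower (9.1%) at 8 h. The median absolute log2 difference over all genes tested was 0.36 from 4 h to 8 h and 0.20 from 8 h to 24 h. Library correlations were 0.902 to 0.942 between 4 h and 8 h, lower than any pair of an 8 h and a 24 h library. Against the control, 9294 genes (36.3%) were called at 8 h and 9189 (35.8%) at 24 h. The difference between the 2 steps was not tested as such.

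At the level of transcripts, 496 of 29885 tested (1.66%) were called between 8 h and 24 h, 223 higher (0.746%) and 273 lower (0.914%). They belonged to 491 genes, of which 476 were called as genes and 15 were tested and not called. An opposite pair, with a transcript higher and a transcript lower at 24 h, was found in 3 of the 3792 genes with at least 2 tested transcripts. The total of each of these genes was not called.

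Potri.007G009400 had the largest opposite pair. Its transcript 2 stood at 0.00117, 0.0145 and 0.0170 TPM at 8 h and at 11.0, 9.50 and 10.7 TPM at 24 h, a log2 difference of 3.49 (SE 0.18, limma adjusted p = 1.88e-08). In every library of the 7 other groups it stayed at or below 0.302 TPM, so all 3 libraries of 24 h stand apart from the whole series. Transcript 3 went from 16.3, 13.7 and 14.1 TPM to 4.16, 4.22 and 1.36 TPM (-1.97, SE 0.30, adjusted p = 0.00221). The gene total was 14.5 ± 1.35 TPM at 8 h and 14.3 ± 1.93 TPM at 24 h (SD, n = 3 each; log2 difference -0.02, adjusted p = 0.992). Transcript 3 lost its call with only the 6 libraries of both times in the fit (limma adjusted p = 0.0792). With these libraries and a replicate block, transcript 2 (0.142) and transcript 3 (0.155) both lost it.

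In Potri.017G093600, transcript 2 rose from 1.55, 1.82 and 1.49 TPM to 8.78, 7.81 and 13.7 TPM (log2 difference 2.05, SE 0.41, limma adjusted p = 0.0171). Transcript 3 fell from 7.54, 5.69 and 6.18 TPM to 0.000195, 0.00264 and 0.329 TPM (-2.75, SE 0.64, adjusted p = 0.0371). These are 2 of 4 tested transcripts, and the gene total of 53.4 ± 14.7 and 55.2 ± 11.3 TPM (SD, n = 3 each) differed by 0.06 (adjusted p = 0.971). Leaving out any single library of 8 h or 24 h, other than 24 h replicate 2 for transcript 2, took the adjusted p of both above 0.05 (up to 0.169). Over all alternatives, transcript 2 lost its call in 6 of 16 and transcript 3 in 9 of 15.

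Potri.014G164500, the remaining gene of the 3, had a transcript above 1 TPM at these 2 times only. Its transcript 3 was listed at 0 in the libraries from the control to 4 h, other than 0.00137 TPM in 15 min replicate 3. It stood at 12.2, 6.35 and 12.3 TPM at 8 h and at 0, 2.79 and 3.79 TPM at 24 h. The fall between 8 h and 24 h was -2.05 on the log2 scale (SE 0.41, limma adjusted p = 0.0162). The earlier libraries, at or near 0, enter that spread and make it smaller. With only the libraries of 8 h and 24 h in the fit, the limma adjusted p was 0.188. Transcript 2 was at 19.3, 16.4 and 12.1 TPM at 8 h and at 39.4, 27.5 and 33.0 TPM at 24 h (1.03, SE 0.25, adjusted p = 0.0464). Under the alternatives, transcript 2 lost its call in 10 of 16 and transcript 3 in 5 of 15. Reads that fit several transcripts of a gene are divided by an estimate whose error is not in these values.

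**Figure D4:**
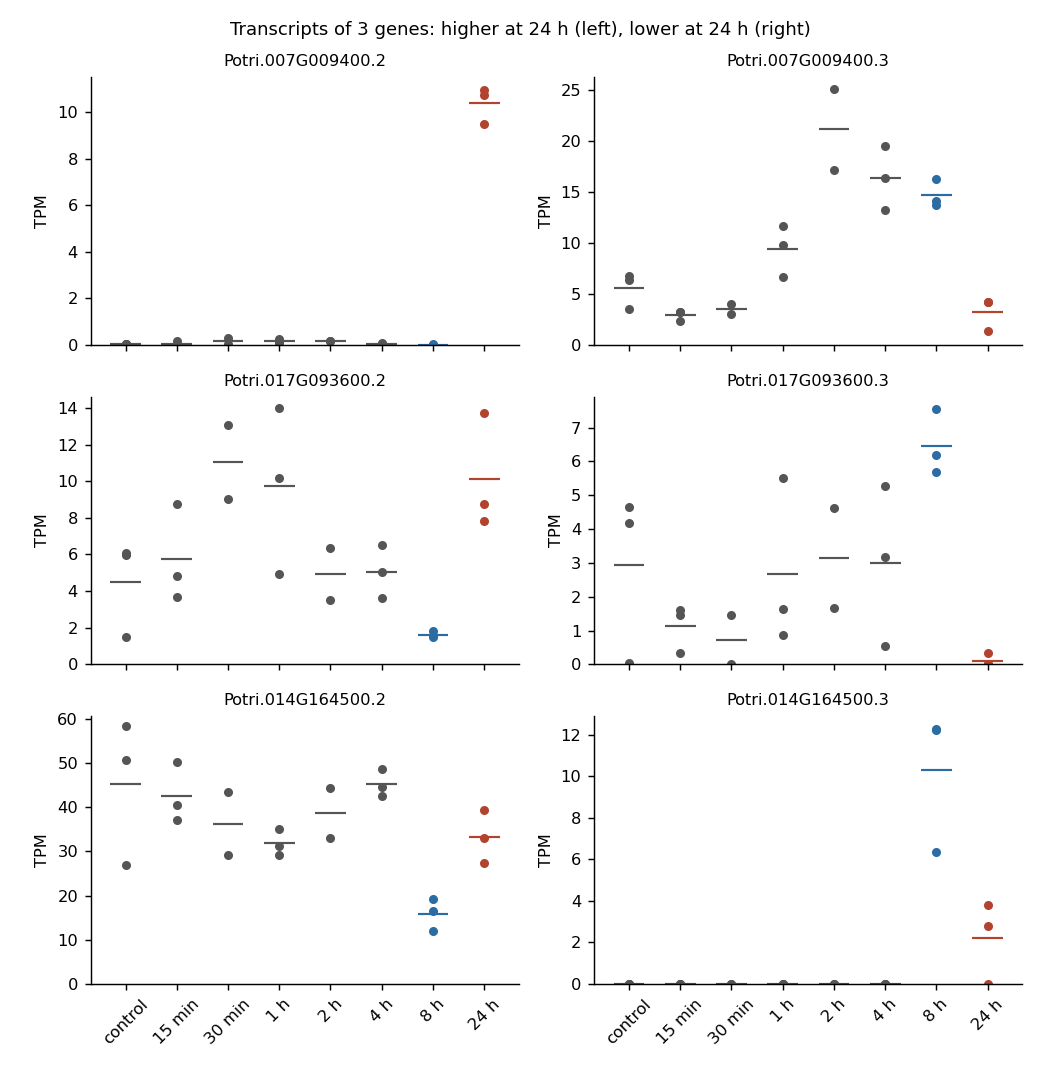
TPM of the transcript called higher (left) and the transcript called lower (right) at 24 h for the 3 genes with an opposite pair, 1 row per gene, with 1 point per library and a line at the mean of each group, 8 h in blue and 24 h in red. Transcript 2 of Potri.007G009400 is near 0 in every group but 24 h, and transcript 3 of Potri.014G164500 is at or near 0 in every library before 8 h.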

How the data were processed

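Both deposited tables, of genes and of transcripts, give natural log values, ln(TPM + 1), which the authors had quantile-normalized over the libraries; the table names and the values show this. Back-transformed with base e, libraries sum to 936253 to 936552 TPM. Kallisto and sleuth are named, without version or role, per the submitters' processing notes; the build of the genome is likewise not stated there. Columns were used for 22 of 24 samples; not analysed here are 30 min replicate 2 and 2 h replicate 3.

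Tests ran on log2(TPM + 1), which shrinks the fold change of genes with low levels. Features with a mean of at least 1 TPM were fitted in limma 3.58.1 (R 4.3.3) with 1 mean per group over all 22 libraries (14 residual degrees of freedom), a mean-variance trend and empirical Bayes moderation. Tests were two-sided, with Benjamini-Hochberg adjustment over all features of a table. The design had assumed TPM rather than its log. The procedure was also run on simulated data in which a gene had the same spread in all groups. That run therefore cannot speak to spreads that differ between groups. Figures used matplotlib 3.10.9 under Python 3.11.15.

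The rule for naming took the 2 largest called log2 differences in each direction among genes with at least 5 TPM at the higher time and no overlap of libraries (294 higher and 330 lower genes met these terms), and the 2 genes with the largest opposite pair of called transcripts. Gene lists defined by protein description are void, since no annotation was used. The comparison, rules and lists were chosen with earlier results of these data known. P-values set each difference against the spread between pools within groups, which the reported fit shares over all 22 libraries. Alternatives changed the libraries fitted, pseudocount, filter, trend, weights, centring and a replicate block, and left out each library of 8 h and 24 h.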

Additional observations from a re-analysis of the deposited data

Results flagged for a closer look

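In each case below, the change from the control differed between 8 h and 24 h, by the direct limma test of 24 h against 8 h. The naming rule chose these genes and transcripts by that same test, so its outcome here was set by the choice. For Potri.014G106800 the log2 difference of the step was 3.88, with -2.66 against control at 8 h and 1.22 at 24 h. For Potri.001G031800 it was 3.20, with -3.04 and 0.16 against control. For Potri.009G041100 it was -4.13, with 2.55 and -1.58 against control. For Potri.017G011900 it was -3.76, with -0.56 and -4.33 against control. In the transcript table the step was 3.49 for transcript 2 of Potri.007G009400 (-0.05 and 3.45 against control) and -1.97 for its transcript 3 (1.30 and -0.67). It was 2.05 for transcript 2 of Potri.017G093600 (-0.92 and 1.13) and -2.75 for its transcript 3 (1.25 and -1.50).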

How the results depend on the processing

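Counts are of genes called between 8 h and 24 h in limma, and the cause of a moved count was not tested unless stated. With the 15 min and 30 min libraries left out of the fit, 1117 genes were called (547 higher, 570 lower) and 857 transcripts. Library weights gave 2725 genes (1398 higher, 1327 lower), 632 of them at least 2-fold apart, and 2287 transcripts. With only the 6 libraries of both times, 552 genes and 122 transcripts were called, on 4 residual degrees of freedom; 372 of these genes are among the 679. Leaving out 1 library of 8 h or 24 h gave 219 to 725 genes, 109 to 358 higher, 110 to 367 lower and 176 to 473 at least 2-fold apart, and 159 to 512 transcripts. Under library weights 51.3% of calls were higher, against 46.4% in the reported fit. The other alternatives (pseudocount of 0.1 TPM, no filter or one of 5 TPM, no trend, centring, replicate block over all libraries) gave 569 to 798 genes.

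Samples were not paired by replicate number in the reported fit. Deviations of same-numbered 8 h and 24 h libraries from their group means correlated at -0.037, 0.231 and 0.058 across genes. The 8 h replicate 1 correlated best with 24 h replicate 3 (0.257), and 8 h replicates 2 and 3 each did so with their own number. Deviations cancel within a group, so these values constrain each other and cannot settle if the numbers pair samples. A replicate block over all libraries gave 798 genes. With the block and only 6 libraries, on 2 residual degrees of freedom, 140 genes were called (61 higher, 79 lower, all 140 at least 2-fold apart) and 0 transcripts, with 5175 transcripts at an unadjusted p under 0.05. In that fit the adjusted p of Potri.017G011900 was 0.066; the other 3 named genes that rose or fell stayed under 0.05 in all 16 alternatives, and Potri.017G011900 in the other 15. Depth is unknown, so no counting error can be given, and a level of 0 does not show that a transcript was absent.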
